A study of Mus musculus with 36 samples.

Results

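Tnf, the gene of the inflammatory cytokine tumour necrosis factor, and 9 genes of its receptors, adapters and restraining proteins were followed in BV-2 cells, a mouse microglial line immortalised with oncogenes. The 10 genes were taken by their symbols (Tnf, Tnfsf9, Tnfrsf1a, Tnfrsf1b, Traf1, Traf2, Birc3, Tnfaip3, Tnip1 and Tnfaip2) from 19879 genes listed in the deposited tables, and each was found once. RNA was sequenced from 36 libraries in 12 groups of 3, from 6 treatments sampled at 4 h and at 24 h. Cells received only a vehicle (DMSO or ethanol, EtOH), or LPS at 600 ng/ml (lipopolysaccharide, a bacterial cell wall component that activates microglia), or the same LPS dose with dimethyl fumarate (DMF) at 30 µM, monomethyl fumarate (MMF) at 30 µM or cannabidiol (CBD) at 6 µM. Vehicles were at 0.2%, DMSO serving for DMF and MMF and EtOH for CBD. Which vehicle the cells given LPS alone carried is not given in the sources used here, so LPS is set against both. The same LPS-alone libraries serve for every drug, although DMF and MMF came in DMSO and CBD in EtOH. Where the vehicles were not the same, drug and vehicle cannot be told apart in a comparison with LPS alone. Every group is the same unmodified line, with no primary microglia among these libraries, and serum was lowered before the drugs were added in all groups. The labels speak of 3 independent experiments.

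TNF is made by activated microglia and macrophages after Toll-like receptor signalling reaches the transcription factor NF-kappaB. It binds a widely expressed receptor, TNFR1 (Tnfrsf1a), and a receptor typical of immune cells, TNFR2 (Tnfrsf1b), and both recruit TRAF2 together with the ubiquitin ligases cIAP1 and cIAP2 (the latter encoded by Birc3) to build a signalling complex that turns NF-kappaB on again. The circuit is restrained by A20 (Tnfaip3), a ubiquitin-editing enzyme, and its partner ABIN1 (Tnip1), whose genes are themselves switched on by NF-kappaB, as are Traf1, Birc3 and Tnfaip2. Tnfsf9 encodes 4-1BB ligand, another cytokine of the TNF family.

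The start regions of 3 genes that fell together under DMF at 4 h are shown because NF-kappaB acts at promoters. Positions are from the GRCm39 mouse build used for the deposited tables. Tnf (ENSMUSG00000024401) lies at chr17:35418357-35420983 on the minus strand, Tnfaip3 (ENSMUSG00000019850) at chr10:18876658-18891405 on the minus strand, and Tnip1 (ENSMUSG00000020400) at chr11:54801611-54853743 on the minus strand. The 300 bases outside the 5′ end of Tnf, chr17:35420984-35421283, hold no exon base of Tnf. Capitals mark TATAAA, the only match on the gene's own strand, starting 29 bases before the deposited start.
Tnf: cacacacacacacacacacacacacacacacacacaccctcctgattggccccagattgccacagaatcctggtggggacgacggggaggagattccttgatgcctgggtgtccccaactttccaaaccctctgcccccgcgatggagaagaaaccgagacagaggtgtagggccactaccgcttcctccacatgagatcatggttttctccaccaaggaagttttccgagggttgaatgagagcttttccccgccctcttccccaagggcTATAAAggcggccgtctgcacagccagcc

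TATAAA on the gene's strand was present in 7.3% of 17999 windows of the same length before protein-coding genes. The NF-kappaB consensus, searched by that name on both strands, had no match in the Tnf window. Of the windows outside the deposited 5′ ends of the 10 genes, 1 held a match, that of Tnip1, against 5.3% of the 17999. When windows were instead placed before the start of each gene's canonical transcript (GENCODE), again 1 of the 10 held a match, that of Tnfaip3, against 5.4%. Stretches of 30 bases around these matches, on the minus strand, are chr11:54853804-54853833 for Tnip1 and chr10:18891264-18891293 for Tnfaip3, with the matched bases in capitals.
Tnip1: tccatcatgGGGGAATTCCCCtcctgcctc
Tnfaip3: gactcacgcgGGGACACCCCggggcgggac

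The Tnip1 run holds 3 overlapping matches, starting 81, 80 and 79 bases before the deposited 5′ end of the gene, and 175 of the 300 bases of that window lie in annotated Tnip1 exons. The Tnfaip3 match starts 97 bases before the canonical start and lies within the deposited bounds of the gene. A match is a description of the letters only, and the absence of one concerns these windows alone.

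The libraries held 14.1 to 26.7 M counted reads. All 9 microglia and macrophage markers checked (among them Csf1r, Itgam, Ptprc, Trem2, Aif1, Cx3cr1, P2ry12 and Tmem119) had at least 10 reads in every library, but P2ry12 reached only 15 to 125 reads and Tmem119 18 to 243. Of 4 astrocyte markers 0 had 10 reads in every library, of 4 neuron markers 1 did (Map2, 86 to 334 reads) and of 4 oligodendrocyte markers 2 did (among them Mbp, 664 to 2081 reads). Rbfox3 and Mog had at most 1 read in any library, and Aqp4, Snap25 and Syt1 were not listed. The strand setting of the read counting is not given in the sources used here. This touches Tnip1, 25.26% of whose exon bases overlap Gpx3 on the other strand, Tnfsf9 (14.45%) and Tnfaip2 (13.63%). The other members overlap opposite-strand genes over at most 3.93% of their exon bases. Values below are normalised read counts, that is reads divided by a size factor, on one scale for all 36 libraries. Fold changes come from the deposited normalised counts of the 6 libraries compared, and the use of separate scales moved no log2 fold change of a member by more than 0.024.

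Libraries with the same number shared features across groups. The LPS-treated groups and the vehicle groups carry different numbers. Numbers 2 and 5 are put together below only as the middle library of each set. Whether they come from the same experiment is not given in the sources used here. Replicate 2 of the LPS-treated groups, or replicate 5 of the vehicle groups, was the highest of its 3 libraries in 12 of 12 groups for Tnfrsf1b, in 11 of 12 for Traf1, Birc3 and Tnfaip2, in 10 of 12 for Tnfrsf1a and in 9 of 12 for Tnfaip3. It was the highest in 4 of 12 groups for Tnf and for Traf2. The coefficient of variation within a group accordingly reached 73.9% for Traf1 and 40.5% for Tnfaip3, against 20.6% for Tnf and 11.3% for Traf2. Where same-numbered libraries deviate together, results are also given with the replicate number in the model (the replicate block).

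Per kilobase of annotated exon (all exons of a gene joined), Tnf was the most abundant of the 10 genes. In DMSO cells at 4 h its RPKM, the reads scaled by exon length and library total, was 49.8 ± 4.11 (SD, n = 3), followed by Tnfsf9 at 40.8 ± 3.31 and Tnfrsf1a at 26.4 ± 3.53 on that scale. Tnfaip3 stood at 2.04 ± 0.663 and Traf1 at 0.781 ± 0.576, the lowest levels. With LPS at 4 h the Tnf level was 248 ± 22.9 on the same scale, and the next highest, Tnfsf9, was 45.8 ± 1.70. The joined exons measure 1.64 kb for Tnf and 10.3 kb for Tnip1, and they can exceed a single transcript. The order of the genes therefore rests on this measure of length.

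LPS raised Tnf, its inducible adapter Traf1, the receptor Tnfrsf1b and the restraining pair Tnfaip3 and Tnip1 within 4 h. The Tnf normalised read count was 1431, 1366 and 1200 in the 3 DMSO libraries, 1495, 1687 and 1476 with EtOH, and 7580, 6606 and 6953 with LPS. Every LPS library thus lay far above every vehicle library. The log2 fold change was 2.40 ± 0.08 (SE) against DMSO (limma adjusted p = 1.96e-06) and 2.18 ± 0.08 against EtOH (limma adjusted p = 6.81e-06), a 5.27-fold and 4.54-fold rise. The same 3 LPS libraries serve in both comparisons. LPS-treated and vehicle libraries share no replicate numbers, and whether they come from the same experiments is not given in the sources used here. The part of a difference between experiments was therefore not tested in any comparison of LPS-treated cells with a vehicle, at 4 h or 24 h.

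Of the 10 members, 7 rose and 0 fell against DMSO at 4 h, where 14.1% of all genes tested were called in either direction and 7.70% were called higher. Against EtOH 7 rose and 0 fell, where 10.2% of genes were called and 5.69% were called higher. The median log2 fold change of the 10 was 1.08 against DMSO and 1.17 against EtOH, beside medians of about 0 over all genes tested (-0.0005 and 0.0022). In 6 members (Tnf, Tnfrsf1b, Traf1, Tnfaip3, Tnip1 and Tnfaip2) the call was made against both vehicles. Groups did not overlap in 8 of 10 members against either vehicle, beside 35.7% of all genes with DMSO and 31.4% with EtOH.

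Among the adapters, Traf1 showed the largest log2 difference. Its count was 51.2, 209 and 80.1 with DMSO and 569, 1067 and 647 with LPS at 4 h. The lowest LPS library was above the highest DMSO library in spite of the spread among both. The log2 fold change was 2.93 ± 0.46 against DMSO (limma adjusted p = 0.00426) and 2.81 ± 0.38 against EtOH (adjusted p = 0.00329). Traf2, the adapter of both receptors, differed by 0.26 ± 0.07 against DMSO (adjusted p = 0.0378) and by 0.12 ± 0.07 against EtOH (adjusted p = 0.325). The Traf2 call was lost whichever of the 6 libraries was left out, with adjusted p-values of 0.051 to 0.139. Birc3, the ubiquitin ligase recruited by TRAF2, rose against EtOH by 0.50 ± 0.12 on the log2 scale (adjusted p = 0.0354), a call lost without LPS replicate 3, EtOH replicate 4 or EtOH replicate 6 (adjusted p = 0.108, 0.141 and 0.132). Against DMSO its difference was 0.43 ± 0.15 (adjusted p = 0.0896).

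The 2 receptors differed in their behaviour under LPS. Tnfrsf1b was at 578, 880 and 733 with DMSO and at 2049, 3214 and 2168 with LPS at 4 h, with no overlap, and rose by 1.75 ± 0.20 on the log2 scale (limma adjusted p = 0.00102). Tnfrsf1a was at 1155, 1472 and 1443 with DMSO and at 1414, 1913 and 1530 with LPS, so the groups overlapped. Its log2 difference was 0.25 ± 0.14 (adjusted p = 0.256, interval -0.06 to 0.55). The difference between the 2 receptors was itself not tested. Tnfsf9 was at 900, 812 and 944 with DMSO and 1003, 1133 and 1038 with LPS, a log2 difference of 0.25 ± 0.08 (adjusted p = 0.0812) against DMSO, and of -0.01 ± 0.08 (adjusted p = 0.968) against EtOH.

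Both restraining genes rose. Tnfaip3 was at 211, 417 and 344 with DMSO, 184, 305 and 198 with EtOH, and 700, 969 and 734 with LPS at 4 h. All LPS libraries were above all vehicle libraries, and the log2 fold change was 1.34 ± 0.24 against DMSO (limma adjusted p = 0.00785) and 1.83 ± 0.20 against EtOH (adjusted p = 0.00128). Tnip1 was at 1246, 1410 and 1329 with DMSO and at 3906, 4410 and 4105 with LPS, a log2 fold change of 1.63 ± 0.08 (adjusted p = 1.14e-05). Tnfaip2, an NF-kappaB target that encodes an exocyst-related protein, rose by 0.82 ± 0.15 against DMSO (adjusted p = 0.00961), a call that did not hold without DMSO replicate 6 (adjusted p = 0.0518). Against EtOH it rose by 0.78 ± 0.16 (adjusted p = 0.0203), a call lost without EtOH replicate 4 or 6 (adjusted p = 0.0782 and 0.0662).

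**Figure D1:**
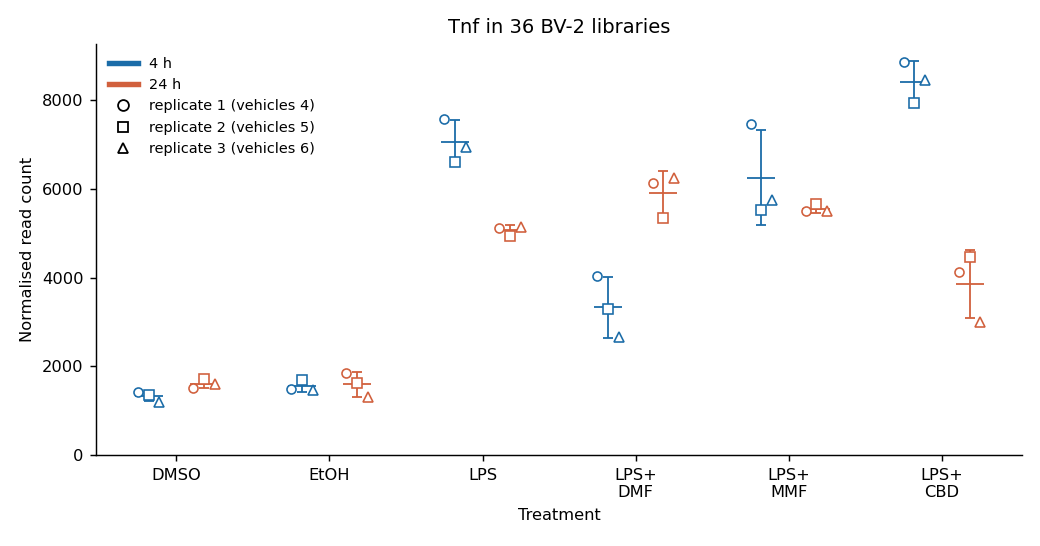
Normalised read count of Tnf (vertical axis, from 0) in each of the 36 libraries by treatment, with 4 h in blue and 24 h in orange. Bars give the mean and SD of 3 libraries and symbols the replicate number. LPS with DMF at 4 h, at 2667 to 4035, lies between the vehicles and the other LPS groups of 4 h. It overlaps LPS with CBD at 24 h, at 2999 to 4461.

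After 24 h the set was still raised. The Tnf count was 1514, 1727 and 1605 with DMSO and 5127, 4931 and 5137 with LPS, a log2 fold change of 1.66 ± 0.07 (limma adjusted p = 1.96e-07). Against DMSO 8 of 10 members rose at 24 h, beside 22.7% of all genes called and 12.1% called higher. Against EtOH 7 of 10 rose, beside 20.5% called and 10.8% called higher. Tnfaip3 had the highest adjusted p of the 8 calls against DMSO, with a log2 change of 0.39 ± 0.13 (adjusted p = 0.0494), and against EtOH it differed by 0.30 ± 0.12 (adjusted p = 0.111). Its call against DMSO was lost without LPS replicate 2 or 3 or any 1 DMSO library (adjusted p = 0.0744 to 0.154). That of Traf2 was lost without LPS replicate 2 or any 1 DMSO library (adjusted p = 0.0523 to 0.0659), and that of Tnfaip2 without any 1 LPS library or DMSO replicate 4 or 6 (adjusted p = 0.0523 to 0.153).

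Markers of other cell types moved with LPS as well. The summed oligodendrocyte markers at 4 h were at 1084 to 1098 with LPS against 1310 to 1384 with DMSO and 1343 to 1475 with EtOH, and the summed neuron markers at 24 h were at 231 to 339 against 119 to 138 and 167 to 195. Their part in the LPS results was not tested.

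The Tnf response to LPS was smaller at 24 h than at 4 h. The log2 fold change against DMSO differed by -0.74 ± 0.11 (24 h minus 4 h, limma interaction over 12 libraries, adjusted p = 0.00172), where 9.36% of genes were called. Against EtOH the same term was -0.49 ± 0.15 (adjusted p = 0.0574), where 9.05% of genes were called. For Tnfaip3 the term was -1.52 ± 0.25 against EtOH (adjusted p = 0.00236) and -0.95 ± 0.29 against DMSO (adjusted p = 0.0569). LPS-treated cells held Tnfaip3 at 801 ± 147 at 4 h and 755 ± 129 at 24 h (SD, n = 3), while the vehicle groups went from 324 ± 105 to 577 ± 67.3 with DMSO and from 229 ± 66.2 to 613 ± 50.3 with EtOH. No other member passed this test against either vehicle.

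**Figure D2:**
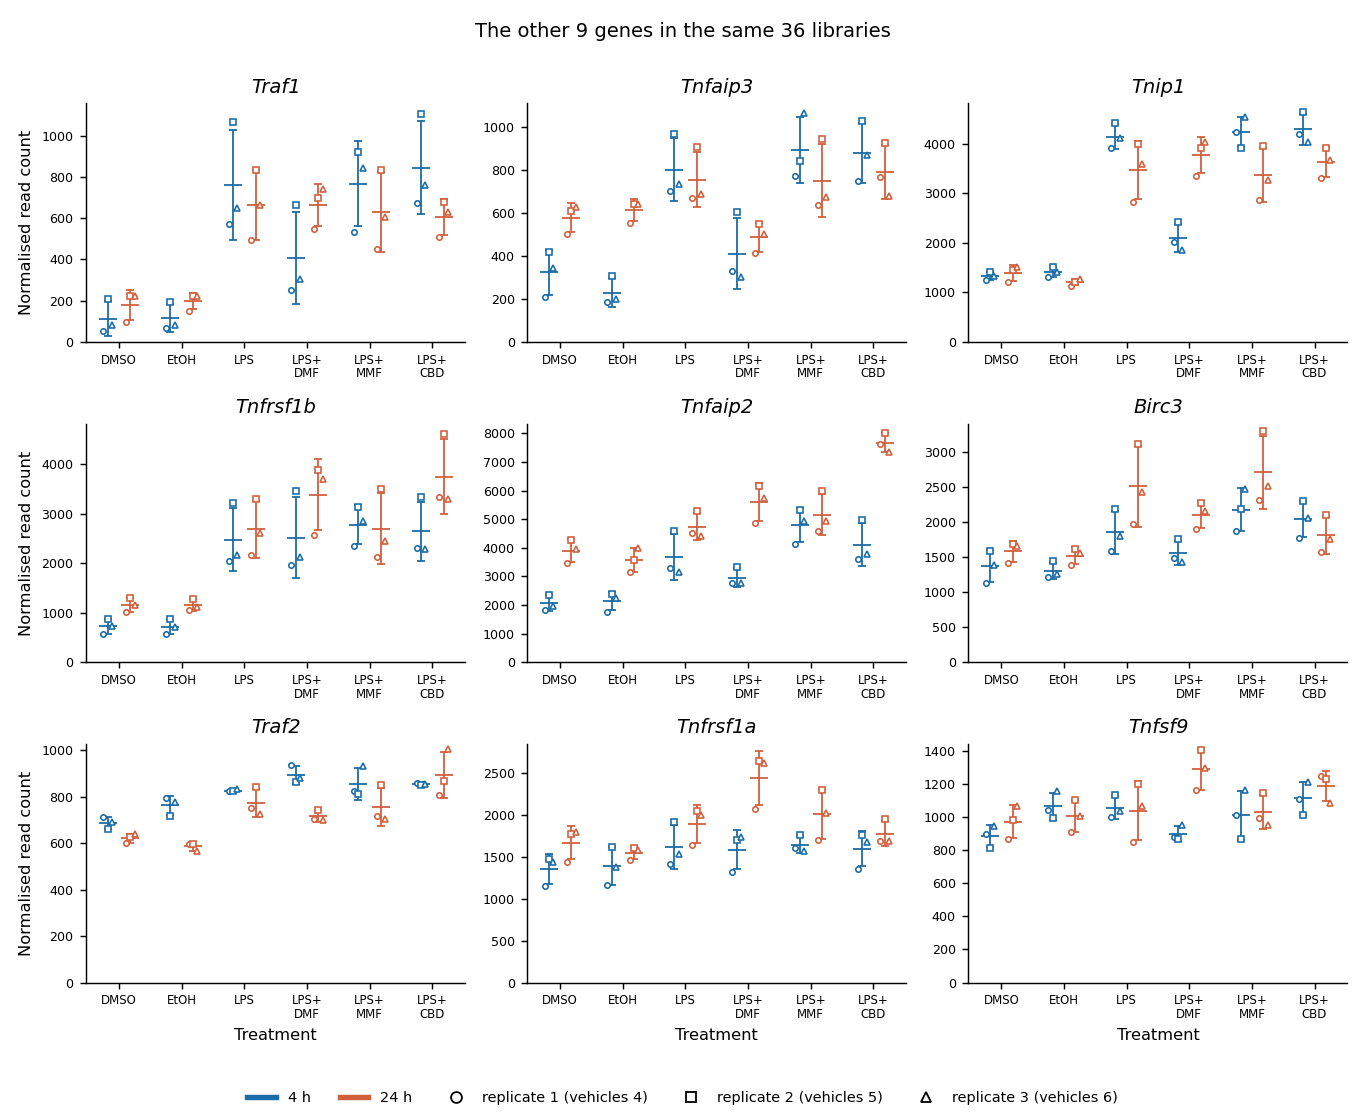
Normalised read count (vertical axes, from 0) of the other 9 genes in the 36 libraries by treatment, with 4 h in blue and 24 h in orange. Bars give the mean and SD of 3 libraries and symbols the replicate number, and the square (replicate 2, or 5 for vehicles) is the highest of its group in all 12 groups for Tnfrsf1b.

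DMF lowered Tnf and both restraining genes at 4 h. The Tnf count with LPS and DMF was 4035, 3285 and 2667, against 7580, 6606 and 6953 with LPS alone, and the groups did not overlap. The log2 fold change was -1.10 ± 0.14 (limma adjusted p = 0.0014). Tnip1 was at 2011, 2410 and 1864, against 3906, 4410 and 4105 with LPS, and fell by 0.99 ± 0.11 (adjusted p = 0.0008). Every DMF library was again below every LPS library. Tnfaip3 was at 330, 602 and 300 against 700, 969 and 734, with a log2 fold change of -1.02 ± 0.25 (adjusted p = 0.03). This call was lost when any 1 library other than DMF replicate 2 was left out (adjusted p = 0.0538 to 0.122), and the log2 fold change then stayed between -1.11 and -0.83.

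These 3 were the only members called in that comparison, all lower, beside 11.1% of all genes called and 6.51% called lower. Groups did not overlap in 5 of 10 members, in either direction, beside 30.1% of all genes. Traf1 was at 253, 662 and 304 with DMF and 569, 1067 and 647 with LPS, so that DMF replicate 2 overlapped the LPS libraries. Its log2 difference was -0.98 ± 0.35 (limma adjusted p = 0.117). Same-numbered libraries deviated together here, and the DMF to LPS ratio of Traf1 was 0.444, 0.62 and 0.47 within numbers 1 to 3. With the replicate block the same difference had an SE of 0.12 and an adjusted p of 0.00131, and without DMF replicate 2 it was -1.41 (adjusted p = 0.00593). Tnfaip2, with ratios of 0.839, 0.725 and 0.884, also passed with the block (log2 difference -0.30 ± 0.08, adjusted p = 0.0499), which made 5 members of 10, beside 15.1% of all genes with the block.

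The remaining members gave no call at 4 h. Tnfrsf1b was at 1969, 3457 and 2129 with DMF and 2049, 3214 and 2168 with LPS, a log2 difference of 0.00 ± 0.23 with an interval of -0.52 to 0.53. Tnfrsf1a (-0.03 ± 0.14), Traf2 (0.11 ± 0.08), Birc3 (-0.25 ± 0.13) and Tnfsf9 (-0.23 ± 0.09) had adjusted p-values of 0.145 to 0.928 in limma. The summed count of the 9 microglia and macrophage markers was lower in this group too, at 17201 to 21261 over the 3 libraries against 24288 to 28273 with LPS, as was that of the oligodendrocyte markers, at 804 to 1065 against 1084 to 1098. Their part in these results was not tested. In bulk RNA fewer cells of a state and less RNA per cell cannot be told apart.

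DMF left Tnf and Tnip1 above the vehicle level at 4 h. Set against DMSO alone, LPS with DMF gave log2 fold changes of 1.30 ± 0.14 for Tnf (limma adjusted p = 0.000258), 0.64 ± 0.11 for Tnip1 (adjusted p = 0.00285), 1.94 ± 0.49 for Traf1 (adjusted p = 0.0183) and 1.75 ± 0.22 for Tnfrsf1b (adjusted p = 0.000507). Tnfaip3 differed from DMSO by 0.32 ± 0.30 (adjusted p = 0.465, interval -0.35 to 0.98). In that comparison 6 of 10 members were called, all higher, beside 23.5% of all genes, and the count ran from 3 to 6 when single libraries were left out, with 3 calls left without DMSO replicate 6. Traf1 lost its call without DMSO replicate 4 or 6 (adjusted p = 0.0656 and 0.0663). It shares the DMF libraries with the comparison against LPS.

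At 24 h the picture was different. Tnf was at 6131, 5343 and 6239 with LPS and DMF against 5127, 4931 and 5137 with LPS, so every DMF library was above every LPS library. The log2 difference was 0.22 ± 0.08 (limma adjusted p = 0.0637), and with the replicate block 0.22 ± 0.05 (adjusted p = 0.0103). Tnip1 was at 3350, 3922 and 4035 against 2833, 3984 and 3597, with a log2 difference of 0.13 ± 0.12 (adjusted p = 0.451). Tnfaip3 remained lower, at 414, 546 and 500 against 671, 904 and 690, with no overlap and a log2 fold change of -0.63 ± 0.13 (adjusted p = 0.0074). This call held when any 1 library was left out (adjusted p = 0.00889 to 0.0305). Tnfrsf1a rose from 1637, 2045 and 1996 to 2076, 2645 and 2616, by 0.37 ± 0.11 (adjusted p = 0.0341), a call lost without DMF replicate 2 or 3 or any 1 of the LPS libraries numbered 1 and 3 (adjusted p = 0.0686 to 0.141).

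These 2 calls stood beside 25.1% of all genes called, a share above 2 of 10. Groups did not overlap in 3 of 10 members, beside 42.4% of all genes. With the replicate block 7 members passed, the additional ones being Tnf, Tnfsf9 (0.32 ± 0.06, limma adjusted p = 0.0036), Tnfrsf1b (0.33 ± 0.06, adjusted p = 0.00283), Tnfaip2 (0.24 ± 0.06, adjusted p = 0.013) and Birc3 (-0.23 ± 0.07, adjusted p = 0.0278), beside 39.1% of all genes with the block. Set against DMSO at 24 h, 9 of 10 members were higher with LPS and DMF, beside 40.2% of all genes called. Tnfaip3 was the exception, with 487 ± 67.3 against 577 ± 67.3 with DMSO (SD, n = 3) and a log2 difference of -0.23 ± 0.12 (adjusted p = 0.157). The Traf2 call in that comparison was kept in 1 of 6 fits that left out 1 library (limma adjusted p = 0.043 to 0.11). DESeq2 called 8 members there. The summed count of the neuron markers, nearly all of it Map2, was 66.0 to 141 with DMF at 24 h against 231 to 339 with LPS and 184 to 211 with MMF, and its part in the DMF results at 24 h was not tested.

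The change of the DMF effect between the time points was tested as an interaction over 12 libraries, where 16.4% of genes were called. For Tnf the log2 effect was 1.31 ± 0.17 higher at 24 h than at 4 h (limma adjusted p = 0.000178), and for Tnip1 it was 1.11 ± 0.18 higher (adjusted p = 0.000863). Both calls held when any 1 library was left out. Tnfsf9 also passed, with 0.54 ± 0.16 (adjusted p = 0.0333), a call kept in 4 of 12 fits that left out 1 library and lost, with adjusted p-values of 0.0515 to 0.0922, without DMF replicate 1 or 2 or LPS replicate 2 or 3 of 4 h, or DMF replicate 2 or 3 or LPS replicate 1 or 3 of 24 h. For Tnfaip3 the term was 0.38 ± 0.31 (adjusted p = 0.433, interval -0.28 to 1.04), so a difference between its falls at 4 h and 24 h was not shown. Without DMF replicate 2 of 4 h that term was 0.70 (adjusted p = 0.0401). With the replicate block 6 members passed, beside 23.4% of all genes, the additional ones being Tnfrsf1a (0.39, adjusted p = 0.0183), Traf1 (0.99, adjusted p = 0.00825) and Tnfaip2 (0.53, adjusted p = 0.00483). This block also pairs 4 h with 24 h, and same-numbered libraries with LPS and DMF did not deviate together between the times.

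**Figure D3:**
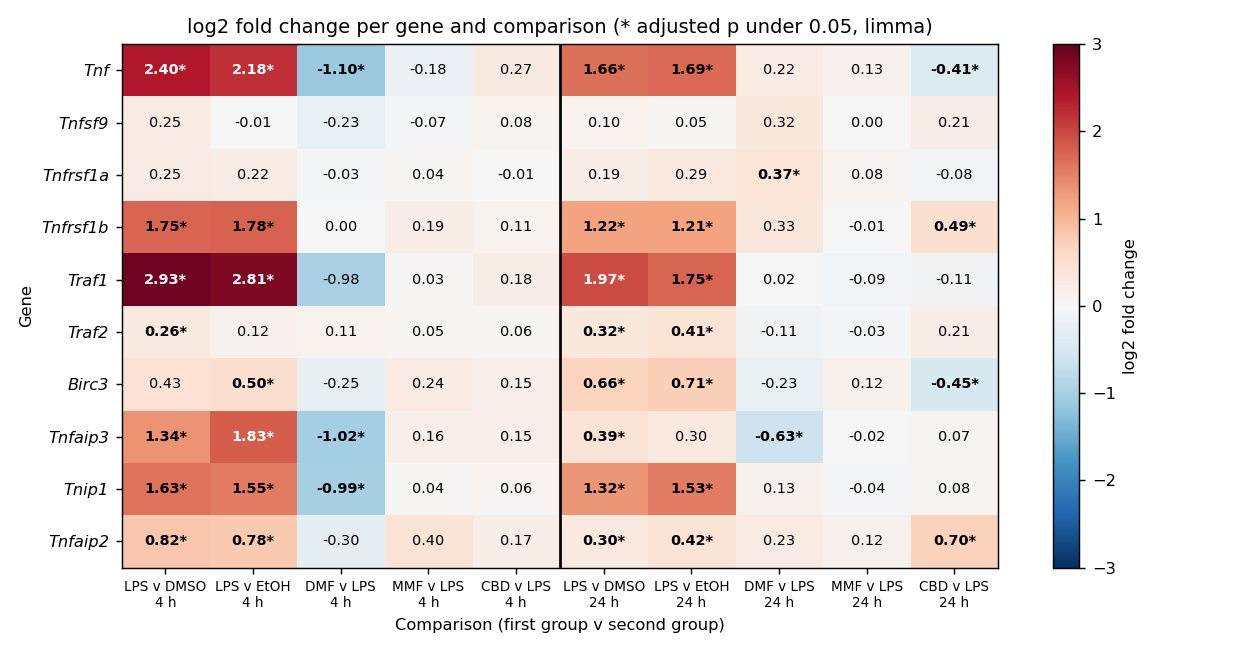
log2 fold change of each gene (rows) in 10 comparisons (columns, first group over second, 4 h left of the line and 24 h right), with red for higher and blue for lower and an asterisk for a limma adjusted p under 0.05. Under DMF at 4 h Tnf, Tnfaip3 and Tnip1 are marked lower (-1.10, -1.02 and -0.99), and at 24 h Tnfaip3 alone of these (-0.63).

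MMF, the monomethyl ester that DMF is converted to in the body, gave no call on any member at the same dose. The Tnf count at 4 h was 7471, 5525 and 5756, overlapping LPS, with a log2 difference of -0.18 ± 0.11 and an interval of -0.43 to 0.08. Tnip1 was at 4236, 3919 and 4531 (0.04 ± 0.08, interval -0.15 to 0.22) and Tnfaip3 at 770, 841 and 1064 (0.16 ± 0.15, interval -0.17 to 0.50). Tnfaip2 had the lowest adjusted p of the 10, 0.579, with a log2 difference of 0.40 ± 0.15. In this comparison 0.122% of all genes were called by limma, and edgeR and DESeq2 also called 0 members. Without LPS replicate 2 Tnfaip2 passed (0.57, adjusted p = 0.0468). At 24 h Tnf was at 5503, 5661 and 5492, all above the 3 LPS libraries, with a log2 difference of 0.13 ± 0.06 and an interval of -0.01 to 0.27. It was the 1 member of 10 without overlap, beside 9.0% of all genes. There 0% of all genes were called by limma, although 440 had an unadjusted p under 0.05, and edgeR called 0 and DESeq2 17 of all genes. Same-numbered libraries deviated together here, and with the replicate block 206 genes, or 1.78%, were called, but 0 members. The change of the MMF effect between 4 h and 24 h gave no call on a member either, with 0% of all genes called, 384 at an unadjusted p under 0.05, and 0 by edgeR or DESeq2.

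The fumarates were then compared directly, at equal doses and at both times. DMF carries 2 methyl ester groups and MMF 1. At 4 h the Tnf count was 4035, 3285 and 2667 with DMF and 7471, 5525 and 5756 with MMF, without overlap, and the log2 fold change of DMF over MMF was -0.92 ± 0.16 (limma adjusted p = 0.00719). Tnip1 (-1.03 ± 0.11, adjusted p = 0.000829), Tnfaip3 (-1.18 ± 0.24, adjusted p = 0.0143), Tnfaip2 (-0.70 ± 0.12, adjusted p = 0.00697) and Birc3 (-0.49 ± 0.12, adjusted p = 0.0363) were also lower with DMF. This made 5 members lower and 0 higher, beside 8.34% of all genes called and 4.97% called lower. Groups did not overlap in 5 of 10 members, beside 29.6% of all genes. The summed count of the microglia and macrophage markers was lower with DMF as well, at 17201 to 21261 against 21558 to 24797 with MMF, and its part in these results was not tested. The Tnfaip3 call was lost without DMF replicate 3 or MMF replicate 3 (adjusted p = 0.0641 and 0.079), and that of Birc3 without DMF replicate 1 or 3 or MMF replicate 2 or 3 (adjusted p = 0.0786 to 0.15). Traf1 differed by -1.01 ± 0.32 (adjusted p = 0.0846) and, without DMF replicate 2, by -1.44 (adjusted p = 0.000356). Without that library Tnfrsf1b also differed, by -0.44 (adjusted p = 0.0387). With all libraries no difference was called for Tnfrsf1b (-0.19, interval -0.62 to 0.25), Traf2 (0.06, interval -0.16 to 0.27), Tnfrsf1a (-0.07, interval -0.33 to 0.20) or Tnfsf9 (-0.17, interval -0.42 to 0.08).

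At 24 h the fumarates differed in 2 of 10 members, no more than the 21.5% of all genes called. Whether their difference changed with time was not tested. Tnfaip3 was at 414, 546 and 500 with DMF and 635, 943 and 673 with MMF, lower with DMF by 0.61 ± 0.15 on the log2 scale (a log2 fold change of -0.61, limma adjusted p = 0.0194). Tnfsf9 was at 1162, 1406 and 1299 with DMF and 998, 1149 and 953 with MMF, where DMF was 0.32 ± 0.09 higher on that scale (adjusted p = 0.0368). The groups did not overlap for either gene, nor in 3 of the 10 members in all, beside 39.3% of all genes. The Tnfaip3 call was lost without DMF replicate 3 (adjusted p = 0.0701), and that of Tnfsf9 without DMF replicate 2 or 3 or MMF replicate 1 or 3 (adjusted p = 0.111 to 0.131). For Tnf the difference was 0.08 ± 0.07 with an interval of -0.07 to 0.24. With the replicate block, used because same-numbered libraries deviated together at 24 h, 6 members passed beside 39.8% of all genes, the additional ones being Tnfrsf1a (0.28, adjusted p = 0.000725), Birc3 (-0.35, adjusted p = 0.000441), Tnfrsf1b (0.34, adjusted p = 0.00166) and Tnip1 (0.17, adjusted p = 0.0301).

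**Figure D4:**
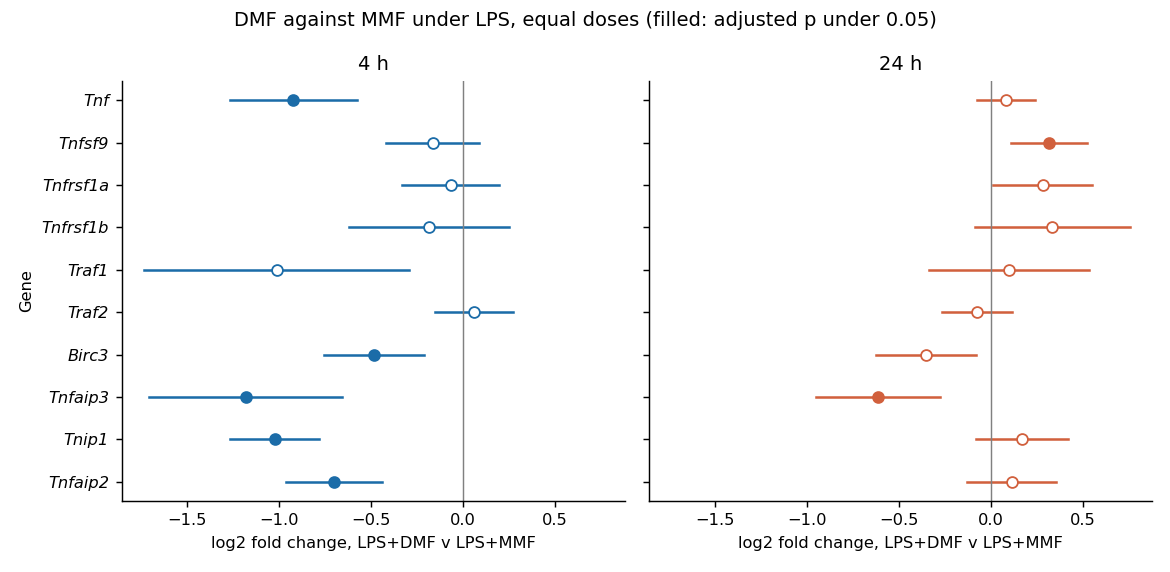
log2 fold change of LPS with DMF over LPS with MMF (horizontal axes) for the 10 genes at 4 h (left) and 24 h (right). Points are limma estimates, lines 95% intervals, and filled points have an adjusted p under 0.05, which 5 genes reach at 4 h (all below 0) and 2 at 24 h.

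Against the vehicle, the members stood with MMF much as with LPS. With LPS and MMF 8 of 10 were higher than DMSO at 4 h, beside 8.22% of all genes called, and 7 of 10 at 24 h, beside 22.4%. The Traf2 call was lost whichever 1 library was left out, at 4 h (limma adjusted p = 0.0738 to 0.154) and at 24 h (0.0539 to 0.105). Birc3 kept its call at 4 h in 4 of 6 such fits, and Tnfaip2 at 24 h in 3 of 6. The Tnf log2 fold change over DMSO was 2.22 ± 0.11 at 4 h (limma adjusted p = 2.96e-06) and 1.8 ± 0.07 at 24 h (adjusted p = 3.71e-07).

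CBD gave no call on any member at 4 h. The Tnf count was 8857, 7938 and 8456, all above the 3 LPS libraries, and the ratios within numbers 1 to 3 were 1.17, 1.20 and 1.22. The log2 difference was 0.27 ± 0.08, with an unadjusted limma p of 0.00678 and an adjusted p of 0.994. Only 1 of all genes, or 0.00875%, was called in that comparison, 363 genes had an unadjusted p under 0.05, and edgeR and DESeq2 called 1 and 3. With the replicate block the Tnf difference had an SE of 0.05 and a limma adjusted p of 0.156. With it 0 members passed, beside 0.035% of all genes. Traf2 was likewise above LPS in all libraries, at 861, 850 and 856 against 827, 823 and 832 (log2 difference 0.06 ± 0.06, adjusted p = 0.994). These were the 2 members of 10 without overlap, beside 10.2% of all genes.

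At 24 h CBD lowered Tnf and raised Tnfaip2 and Tnfrsf1b. Tnf was at 4118, 4461 and 2999 with LPS and CBD against 5127, 4931 and 5137 with LPS, with no overlap and a log2 fold change of -0.41 ± 0.13 (limma adjusted p = 0.0278). The call was lost without LPS replicate 1 or 3 (adjusted p = 0.0708 and 0.0829), and the log2 fold change ran from -0.52 to -0.24 as single libraries were left out. Tnfaip2 was at 7618, 8021 and 7359 against 4518, 5277 and 4418, its highest level in any group, and rose by 0.70 ± 0.09 (adjusted p = 0.000191), a call that held when any 1 library was left out. Tnfrsf1b rose by 0.49 ± 0.17 (adjusted p = 0.0341), from 2161, 3301 and 2603 to 3329, 4615 and 3296, a call lost without CBD replicate 2 or LPS replicate 1 or 3 (adjusted p = 0.0892, 0.12 and 0.0952). Birc3 was at 1567, 2097 and 1758 against 1971, 3113 and 2426, overlapping, with a log2 change of -0.45 ± 0.16 (adjusted p = 0.039). The Birc3 call was lost in 4 of the 6 fits without 1 library (without CBD replicate 1 or 3, or LPS replicate 2 or 3, adjusted p = 0.0912 to 0.132). The ratios of Birc3 within numbers 1 to 3 were 0.795, 0.674 and 0.725.

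In this comparison 48.7% of all genes were called, so that 4 of 10 members was no more than the share of all genes. With the replicate block the same 4 passed, beside 56.7% of all genes. The other 6 members gave no call. Groups did not overlap in 3 of 10 members, beside 58.7% of all genes. Tnfaip3 was at 766, 926 and 678 with CBD (log2 difference 0.07 ± 0.14, limma interval -0.25 to 0.39) and Tnip1 at 3304, 3917 and 3670 (0.08 ± 0.12, interval -0.19 to 0.35). The summed count of the oligodendrocyte markers, nearly all of it Mbp, was 737 to 907 with CBD against 1116 to 1448 with LPS, and that of the microglia and macrophage markers 18603 to 26955 against 25744 to 33952. Their part in these results was not tested.

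The CBD effect on Tnf changed between the time points. The effect at 24 h minus that at 4 h was -0.67 ± 0.17 on the log2 scale (limma interaction over 12 libraries, adjusted p = 0.00759), where 31.9% of genes were called, and the call held when any 1 library was left out. With the replicate block 4 members passed this test, beside 39.8% of all genes, with Birc3 (-0.60, adjusted p = 0.000176), Tnfaip2 (0.54, adjusted p = 0.00219) and Tnfrsf1b (0.39, adjusted p = 0.00478) added. This block also pairs 4 h with 24 h, and same-numbered libraries with LPS and CBD did not deviate together between the times. Against EtOH alone, LPS with CBD gave a Tnf log2 fold change of 2.45 ± 0.07 at 4 h (adjusted p = 5.65e-07) and 1.27 ± 0.16 at 24 h (adjusted p = 0.000126). In those comparisons 7 of 10 members were higher at each time, beside 13.6% of all genes called at 4 h and 50.5% at 24 h. The Tnfaip3 call at 24 h was kept in 2 of 6 fits that left out 1 library (limma adjusted p = 0.00868 to 0.114).

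**Figure D5:**
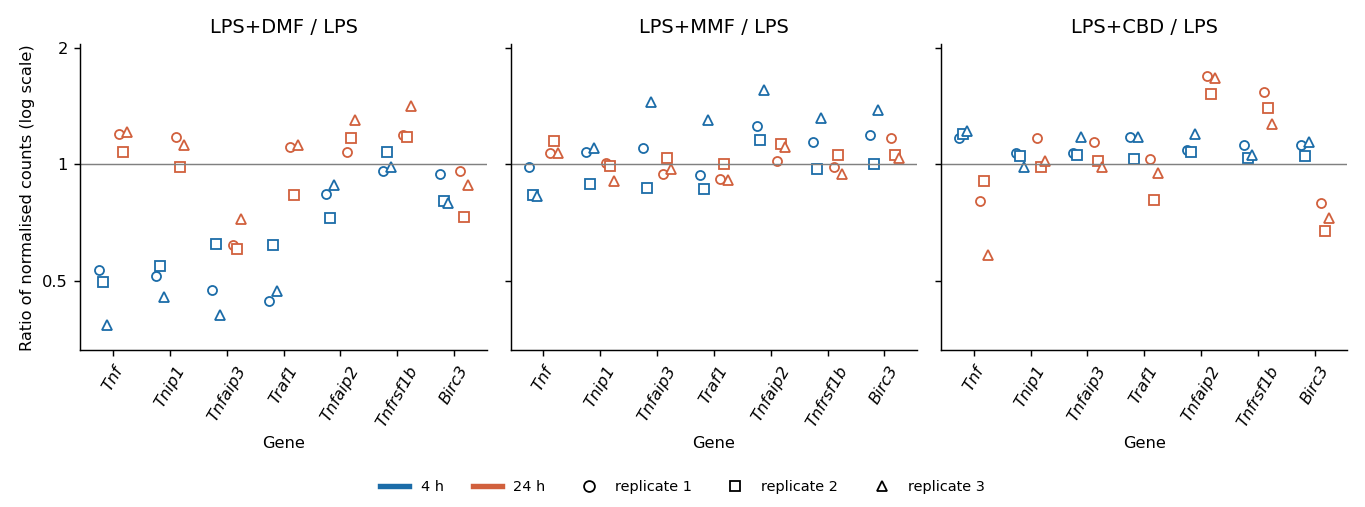
Ratio of the normalised read count with LPS and a drug to that with LPS alone (vertical axis, log scale) within replicate numbers 1, 2 and 3, for 7 genes and the 3 drugs, at 4 h (blue) and 24 h (orange). With DMF at 4 h the ratios of Tnf (0.384 to 0.532), Tnip1, Tnfaip3 and Traf1 all lie well below 1, and with CBD at 24 h those of Tnfaip2 lie at 1.52 to 1.69.

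Across all 12 groups the mean Tnf level ran from 1332 with DMSO at 4 h to 8417 with LPS and CBD at 4 h, a 6.32-fold range. Below the top came LPS (7046 ± 494) and LPS with MMF (6251 ± 1063) at 4 h, then LPS with DMF (5904 ± 489), with MMF (5552 ± 94.5), alone (5065 ± 116) and with CBD (3859 ± 765) at 24 h, then LPS with DMF at 4 h (3329 ± 685), and then the 4 vehicle groups at 1332 to 1615. Of the neighbours among the LPS groups that were tested, LPS alone and LPS with CBD at 24 h differed (limma adjusted p = 0.0278, as above). LPS with CBD and LPS at 4 h, LPS and LPS with MMF at 4 h, LPS with DMF and with MMF at 24 h, and LPS with MMF and LPS at 24 h had adjusted p-values of 0.424 to 1.0. The ranges of the others were 7.48-fold for Traf1, 5.23-fold for Tnfrsf1b, 3.9-fold for Tnfaip3, 3.72-fold for Tnfaip2, 3.57-fold for Tnip1, 2.08-fold for Birc3, 1.8-fold for Tnfrsf1a, 1.53-fold for Traf2 and 1.46-fold for Tnfsf9.

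Some of these genes also differed between 4 h and 24 h in the absence of LPS. Time in culture, time in lowered serum and time with the vehicle cannot be told apart here. The counts of members called were near or below the shares of all genes. From 4 h to 24 h with DMSO, Tnfaip2 rose by 0.90 ± 0.10, Tnfaip3 by 0.86 ± 0.20, Tnfrsf1b by 0.65 ± 0.14 and Tnf by 0.26 ± 0.08 on the log2 scale (limma adjusted p = 6.63e-05, 0.00505, 0.00289 and 0.0234), 4 calls beside 51.6% of all genes. The Tnf call was lost without DMSO replicate 5 or 6 of 24 h or replicate 6 of 4 h (adjusted p = 0.0584 to 0.113). With EtOH 6 members were called, beside 58.6%, among them Tnfaip3 (1.43 ± 0.17, adjusted p = 6.22e-05), while Tnf differed by 0.01 ± 0.12 (adjusted p = 0.967). With LPS alone Tnf fell by 0.48 ± 0.08 (log2 fold change -0.48, adjusted p = 0.00129) and Tnfaip2 rose by 0.38 ± 0.14 (adjusted p = 0.0455), beside 48.9% of all genes called. The Tnfaip2 call was lost without any 1 library but LPS replicate 2 of 4 h (adjusted p = 0.0712 to 0.177). With the replicate block Tnfrsf1a (0.22, adjusted p = 0.048), Birc3 (0.42, adjusted p = 0.00174) and Tnip1 (-0.27, adjusted p = 0.0253) passed as well. This made 5 members, beside 52.2% of all genes with the block. Same-numbered libraries deviated together only weakly here (r of 0.15 to 0.29).

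Under the drugs the course of Tnf split. With LPS and DMF it rose by 0.84 ± 0.14 on the log2 scale between 4 h and 24 h (limma adjusted p = 0.000448), with 8 members called beside 58.8% of all genes. With LPS and CBD it fell, with a log2 fold change of -1.15 ± 0.13 (adjusted p = 4.41e-05), with 5 members called beside 63.2%. With LPS and MMF the log2 difference was -0.16 ± 0.10 (adjusted p = 0.209), with 2 members called beside 49.5%. With the replicate block 4 were called, beside 56.0% of all genes, Traf1 (-0.29, adjusted p = 0.0154) and Birc3 (0.30, adjusted p = 0.0167) being added. DMSO against EtOH gave 0 calls at 4 h, beside 0% of all genes by limma (1051 at an unadjusted p under 0.05, 0 by edgeR and 79 by DESeq2), and 0 at 24 h, beside 0.00854%. Same-numbered vehicle libraries deviated together, however. With the replicate block Tnf (-0.21, limma adjusted p = 0.0261), Tnfsf9 (-0.26, adjusted p = 0.00717) and Tnfaip3 (0.49, adjusted p = 0.0163) differed between DMSO and EtOH at 4 h, beside 7.65% of all genes. At 24 h 0 members passed with the block, beside 0.171% of all genes. The part of a vehicle difference in the comparisons of a drug with LPS alone was not tested.

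The other genes of the TNF pathway were taken as a list of 51, in 5 groups, of which 48 or 49 could be tested. Against DMSO at 4 h LPS raised 13 and lowered 1, beside 14.1% of all genes called, and against EtOH it raised 12 and lowered 1, beside 10.2%. At 24 h it raised 15 and lowered 3 against DMSO, beside 22.7%, and raised 14 and lowered 2 against EtOH, beside 20.5%. Their median log2 fold change lay between 0.06 and 0.13 in these 4 comparisons. Other ligands and receptors of the family held most of the largest rises. Fas, the death receptor, rose by 2.71 ± 0.31 at 4 h against DMSO (limma adjusted p = 0.00106), and Cd40, the co-stimulatory receptor, by 1.76 ± 0.19 (adjusted p = 0.00081). Tnfrsf9, the receptor of 4-1BB ligand, rose by 1.46 ± 0.23 (adjusted p = 0.00462), although Tnfsf9 itself was not called. Cyld, a deubiquitinase that restrains NF-kappaB, fell at 4 h against DMSO (log2 fold change -0.33 ± 0.08, adjusted p = 0.0263), but was not called lower against EtOH.

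Genes that act on Tnf messenger RNA or protein moved as well. Zfp36l2, of the family that destabilises AU-rich messenger RNAs, fell with LPS at 24 h (log2 fold change -0.46 ± 0.08 against DMSO, limma adjusted p = 0.00225), and Rhbdf2, which carries the TNF-releasing protease ADAM17 to the cell surface, rose (0.96 ± 0.08, adjusted p = 8.99e-06). Tnip3, a further A20-binding protein, rose by 1.30 ± 0.19 against EtOH at 4 h (adjusted p = 0.00474). Of the 15 genes of the receptor signalling complex, 1 was called in 3 of the 4 LPS comparisons and 0 against DMSO at 24 h.

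DMF at 4 h lowered 9 and raised 5 of these genes relative to LPS, beside 11.1% of all genes called and 6.51% called lower, with a median log2 fold change of -0.14. Ltb (lymphotoxin beta, -1.94 ± 0.31, limma adjusted p = 0.00398), Fas (-1.47 ± 0.28, adjusted p = 0.00969) and Cd40 (-1.16 ± 0.18, adjusted p = 0.00392) fell most. Ikbkg, the regulatory subunit of the IkappaB kinase complex, rose from 1486 ± 23.8 to 2800 ± 291 (SD, n = 3; 0.91 ± 0.09, adjusted p = 0.000481), as did the deubiquitinase gene Otud7b (0.62 ± 0.11, adjusted p = 0.00649) and the death receptor gene Tnfrsf10b (0.52 ± 0.13, adjusted p = 0.0383). At 24 h DMF raised 8 and lowered 3 of 49 tested, no more than the 25.1% of all genes called. Among them were Ripk1, the kinase of the receptor complex (0.50 ± 0.10, adjusted p = 0.00604), and Tnip3 (-0.52 ± 0.12, adjusted p = 0.012). MMF gave 0 calls on the list at either time and CBD 0 at 4 h. CBD at 24 h raised 11 and lowered 15 of 49 tested, near the 48.7% of all genes called, with Cd40 (1.0 ± 0.09, adjusted p = 2.62e-05) among the rises and Ltb (-1.77 ± 0.21, adjusted p = 0.000149) and Tnip3 (-1.57 ± 0.19, adjusted p = 0.000191) among the falls.

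The genes most like Tnf over the 12 group means, by Pearson's r of mean log2 counts among 10086 genes outside the 10, were Fas (0.979), Il1a (0.978), Pou2f2 (0.965), Acod1 (0.962) and Ptprj (0.960). Among the members, Tnip1 (0.971) and Traf1 (0.966) were the most alike, and Tnfsf9 (0.503) and Tnfrsf1a (0.563) the least. By rank (Spearman's rho) Traf1 stood first of all genes at 0.979, and of the 5 genes named only Ptprj stayed among the 5 most alike. The points are 12 group means of libraries scaled together, the vehicle and LPS groups lie apart, and the values are a description.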

How the data were processed

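RNA of 36 BV-2 libraries was sequenced. Per the submitters' notes, cutadapt 4.4 and Trimmomatic 0.39 were used for trimming, HISAT2 2.2.1 for alignment to GRCm39 and HTSeq 2.0.3 for counting per Ensembl gene, and the strand setting is not given in the sources used here. The authors deposited 30 pairwise tables whose library columns hold a signal, reads per gene divided by DESeq2 1.40.2 size factors (0.750 to 1.53). Whole reads were recovered from it for 100% of 3127002 values, within 0.01 read. The authors' own fold changes and p-values in the same tables were not used.

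For each comparison, log2 of the deposited value plus a pseudocount of 1 was fitted with limma 3.58.1 (lmFit, eBayes with trend, R 4.3.3) over its 6 libraries, for genes with at least 10 in at least 3 libraries. Tests were two-sided, p-values were Benjamini-Hochberg adjusted over all genes tested, and adjusted p under 0.05 is a call. A change of an effect with time was an interaction term over 12 libraries, from recovered reads scaled jointly by median-of-ratios factors. Values after ± are SE for log2 fold changes and SD over 3 libraries for levels, and intervals are 95%. With 3 libraries per group, p-values set a difference against the spread between these libraries, which limma moderates over all genes. The code was tested on data with known changes.

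The members, the pathway list, the markers and the tests were chosen with earlier results of these data known. All 10 members could be named in any comparison. From the pathway list, named genes come from the 3 called genes per direction with the largest log2 fold change, given non-overlapping groups and a higher-group mean of at least 50. Some genes of the lists are not reported here by name. The 5 genes most like Tnf needed a mean of at least 50. Lengths per kilobase are exon unions, and promoters were read, from GRCm39 with GENCODE vM39. Alternatives were pseudocounts of 0.5 and 5, no filter, TMM scaling, 1 fit of all libraries, edgeR 4.0.16 and DESeq2 1.42.0 on recovered reads, the replicate block, and leaving out each library. Same-numbered libraries were taken as paired where the correlation of their deviations from group means exceeded 0.1 for all 3 numbers, which held in 10 of 16 comparisons with shared numbers (r of 0.13 to 0.75). The rule is loose. For number 3, a library of another number correlated more in CBD against LPS at 24 h (0.172 against 0.128). The same held for number 3 of MMF between the times (0.214 against 0.142). Of the drug comparisons it did not hold for MMF against LPS at 4 h or DMF against MMF at 4 h. Between the times it did not hold for either vehicle, or for LPS with DMF or with CBD. LPS and vehicle groups share no numbers.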

Additional observations from a re-analysis of the deposited data

Results flagged for a closer look

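For 6 terms a response differed between 4 h and 24 h by the interaction test. The LPS response of Tnf against DMSO was smaller at 24 h (-0.74 on the log2 scale), and the LPS response of Tnfaip3 against EtOH was smaller at 24 h (-1.52). The DMF effect under LPS was higher at 24 h for Tnf (1.31), Tnip1 (1.11) and Tnfsf9 (0.54). The CBD effect under LPS was lower at 24 h for Tnf (-0.67). The DMF and CBD effects on Tnf changed in opposite directions with time, and its level went from 3329 ± 685 to 5904 ± 489 with DMF, from 8417 ± 461 to 3859 ± 765 with CBD, and from 7046 ± 494 to 5065 ± 116 with LPS alone (SD, n = 3). The LPS libraries are shared by the DMF and CBD terms.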

How the results depend on the processing

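Of 4520 values of members under alternatives, 4239 stayed on the same side of the threshold with the same sign or within 1 SE, 148 lost and 121 gained a call, 12 crossed 0 without a call by over 1 SE or had no adjusted p, and no called value changed sign. Tnf and Tnip1 kept their calls under DMF at 4 h in all alternatives. The replicate block changed the members called from 3 to 5 (DMF against LPS, 4 h, beside 15.1% of all genes). At 24 h it changed them from 2 to 7 (DMF against LPS, 39.1%) and from 2 to 6 (DMF against MMF, 39.8%). For DMSO against EtOH at 4 h they went from 0 to 3 (7.65%). Between the times they went from 2 to 5 (LPS, 52.2%) and from 2 to 4 (MMF, 56.0%). Where same-numbered libraries did not deviate together, it gave 1 (MMF against LPS, 4 h, 1.57%) and 7 (DMSO, 24 h against 4 h, 56.5%). The change of the DMF effect went from 3 to 6 (23.4%) and that of the CBD effect from 1 to 4 (39.8%). Those 2 fits also pair the times, a pairing not met for LPS with DMF or with CBD. The fit of all 36 libraries gave 1 call for DMF against MMF at 24 h, 1 for MMF and 3 for CBD between the times, and 3 for the change of the CBD effect, which was 2 with TMM and 3 with DESeq2. Without the filter LPS between the times gave 1. For the change of the LPS effect DESeq2 gave 2 against DMSO, and edgeR and DESeq2 2 each against EtOH.

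Leaving out 1 library gave 5 to 7 calls for LPS against DMSO at 24 h, 0 to 1 for MMF against LPS at 4 h, 1 to 5 for DMF and 1 to 4 for CBD against LPS at 24 h, 3 to 7 and 0 to 5 for DMF against MMF at 4 h and 24 h, 3 to 6 for LPS with DMF against DMSO at 4 h, and, between the times, 3 to 7 for DMSO, 1 to 4 for LPS, 0 to 3 for MMF and 3 to 5 for CBD. The change of the LPS effect gave 1 to 2 against DMSO and 1 to 3 against EtOH, that of the DMF effect 2 to 5 and that of the CBD effect 1 to 2. The causes were not tested. The lowest value of a member in any library was 51 reads (Traf1).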
